A study of Mus musculus with 24 samples.

Results

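Cd7, Fgl2, Mrgpre, Eif4e3 and Acot11 are 5 of the 24421 genes in the count table. They were chosen by their lower expression in CD8 T cells of mice given both study drugs than in CD8 T cells of untreated mice, with no numeric limit stated, so that difference is described below and not tested. The RNA came from CD8 and CD4 T cells that a cell sorter had taken out of the marrow of female CByB6F1 mice aged 2 to 5 months, all of which had immune-mediated bone marrow failure. The mice were untreated or had received cyclosporine (CSA), low-dose ruxolitinib (RUX) or RUX+CSA, which gives 8 groups of cell type and treatment. Each group held 3 libraries, each from the pooled cells of 2 to 3 mice. No mice without marrow failure were among the samples used here, and no engineered allele is named in the labels. How the marrow failure was induced and the drug doses are not given in the sources used here. The labels do not say whether a CD8 pool and a CD4 pool came from the same mice, so cell types were compared as unpaired. P-values set a difference between groups against the spread between pools within groups, estimated over all groups of a fit.

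Immune-mediated marrow failure is driven by T cells that attack blood-forming cells. Cyclosporine blocks calcineurin, the phosphatase that lets NFAT transcription factors enter the nucleus after T cell receptor signalling. Ruxolitinib blocks the Janus kinases that carry signals from the receptors for interferons and many interleukins. CD7 is a surface glycoprotein of T and natural killer cells and a receptor for galectin-1 and SECTM1. FGL2 is a fibrinogen-like protein, a membrane prothrombinase of macrophages and endothelium and, in its secreted form, an immunosuppressive product of regulatory T cells that binds an inhibitory Fc receptor. MRGPRE belongs to the Mas-related G protein-coupled receptors, best known from sensory neurons. EIF4E3 is a member of the eIF4E family, which binds the cap of messenger RNA, and ACOT11 is a thioesterase that releases fatty acids from acyl-CoA.

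The genes lie on different chromosomes. In mm10, Cd7 spans chr11:121036749-121039478 on the minus strand with 4 exons, and its neighbour on one side, 13945 bp away, is Sectm1b, of the SECTM1 ligand family. Fgl2 spans chr5:21372673-21378386 on the plus strand with 2 exons. It sits within the span of Ccdc146, which runs on the minus strand and shares no exon bases with it. Mrgpre (chr7:143778363-143784500, minus strand, 2 exons) lies 11370 bp from the related receptor gene Mrgprg. Eif4e3 (chr6:99625137-99666771, minus strand, 7 exons) lies between Foxp1 and Gpr27, 189792 and 25908 bp away. Acot11 (chr4:106744561-106799831, minus strand, 16 exons) shares 1263 of its 5668 exon bases (22.3%) with Fam151a on the other strand. Pairs were counted without strand, so pairs from that stretch cannot be told apart, and Acot11 is uncertain to that extent, although Fam151a has 0 counted pairs in all 24 libraries. The level of Acot11 per length given below divides by all 5668 bases, whether or not pairs from that stretch were counted.

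The 250 bases before the gene start are shown for the members that a RefSeq table of promoter windows (GRCm38.p6) holds at the start used in the count table, because calcineurin acts through NFAT, which often binds DNA next to AP-1. The table matched 3 of the 5 members, Fgl2, Mrgpre and Acot11. Capitals mark AP-1 matches (TGANTCA) and NFAT core matches (GGAAA), both searched on both strands. The sequences run from chr5:21372423-21372672 (plus strand), chr7:143784501-143784750 (minus strand) and chr4:106799832-106800081 (minus strand).
Fgl2: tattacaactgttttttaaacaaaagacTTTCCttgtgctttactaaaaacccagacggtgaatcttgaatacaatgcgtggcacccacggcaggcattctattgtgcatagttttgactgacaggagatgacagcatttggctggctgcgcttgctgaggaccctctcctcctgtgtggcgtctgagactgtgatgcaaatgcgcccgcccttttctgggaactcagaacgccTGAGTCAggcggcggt
Mrgpre: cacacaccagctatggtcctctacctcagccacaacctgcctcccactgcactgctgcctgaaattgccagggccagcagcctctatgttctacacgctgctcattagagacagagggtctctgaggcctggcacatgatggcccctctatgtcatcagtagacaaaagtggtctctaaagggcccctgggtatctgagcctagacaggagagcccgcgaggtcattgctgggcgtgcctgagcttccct
Acot11: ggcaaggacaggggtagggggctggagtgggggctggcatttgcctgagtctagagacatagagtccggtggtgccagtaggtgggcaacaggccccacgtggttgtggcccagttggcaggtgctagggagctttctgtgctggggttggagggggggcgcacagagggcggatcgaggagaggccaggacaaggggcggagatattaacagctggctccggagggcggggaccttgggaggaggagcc
The Fgl2 window held 1 AP-1 match and 1 NFAT core match. The AP-1 match lies within the 31 bases by which the nearest GENCODE vM21 start precedes the RefSeq start. The Mrgpre and Acot11 windows held neither motif, which says only that these letters are not in these bases. Of all 32851 windows of this length, 6.75% held the AP-1 letters and 55.6% the NFAT core, so the second is a common match.

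The libraries held 16.9 M to 34.6 M counted read pairs (M, mega), with 13240 to 16459 genes detected. Sorting labels matched the lineage genes. The CD8 markers Cd8a and Cd8b1 summed to 2094 to 2663 CPM (counts per mega read pairs, here of all counted pairs) in CD8 libraries and to 10.1 to 28.96 in CD4 libraries. The CD4 markers Cd4 and Cd40lg summed to 1306 to 1909 CPM in CD4 libraries and to 0.713 to 6.98 in CD8 libraries. The 7 T cell markers summed to 5271 to 7822 CPM in all 24 libraries. RNA of other cells was present and moved with treatment. In CD8 cells, the 9 neutrophil markers summed to 11.1 to 1422 CPM in untreated pools and 3928 to 5092 under RUX+CSA. The 9 erythroid markers went from 5.79 to 27.4 CPM up to 63.1 to 168, and the 7 B cell markers from 1.70 to 3.02 up to 6.86 to 42.4. In CD4 cells the untreated pools ranged from 4.41 to 8688 CPM for neutrophil markers, against 7870 to 9674 under RUX+CSA. CD4 erythroid markers summed to 1.73 to 56.1 CPM untreated and 100.2 to 310.1 under RUX+CSA, and B cell markers to 2.27 to 4.29 and 12.2 to 70.5. Each untreated CD8 pool had 3 of the 7 B cell markers at 0, and each RUX+CSA CD8 pool at most 1.

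**Figure D1:**
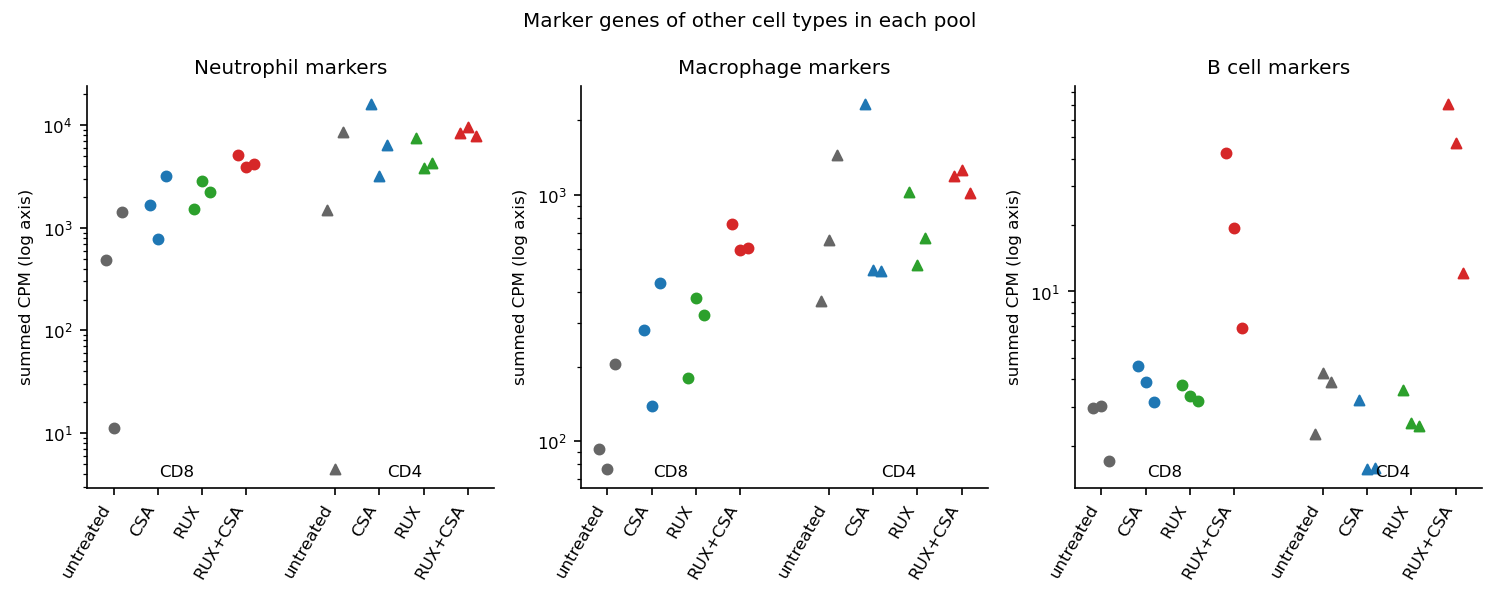
Summed CPM of all counted pairs (log axis) for neutrophil, macrophage and B cell marker genes in each of the 24 pools, by cell type (circles CD8, triangles CD4) and treatment. All 3 RUX+CSA pools of CD8 cells lie above all 3 untreated CD8 pools in the sum of each list, and untreated CD4 pools range from 4.41 to 8688 CPM for neutrophil markers. The macrophage sum does not stand for its members. In CD8 RUX+CSA against untreated, 4 of the 10 macrophage markers were lower and 1 higher by edgeR, with a median log2 difference of -0.69.

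In CD8 cells, pool 6 of the CSA group and pool 7 of the RUX group stood apart from the other pools carrying their labels. For example, the 9 natural killer cell markers summed to 585, 560 and 371 CPM in CSA pools 4 to 6. They summed to 538, 318 and 334 CPM in RUX pools 7 to 9, and to 319 to 366 CPM in untreated pools. On these markers each of the 2 pools was nearer to the other drug's remaining pools than to its own. With every library kept, none of 12684 genes differed between CD8 RUX and CD8 CSA, and with these 2 pools left out 457 did. In CD8 RUX+CSA against untreated, which uses neither pool, leaving them out raised the genes past the threshold from 1988 to 3893, since all CD8 groups share one estimate of the spread. Labels were kept as given. The 2 pools were singled out by their expression, so the counts and p-values without them depend on that choice. In these bulk samples, fewer cells that express a gene and less RNA per cell cannot be told apart.

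Per length, Cd7 was the most abundant of these genes in untreated CD8 cells, at 616 ± 81.6 FPKM (pairs per kilobase of exon and mega pairs, SD, n = 3 as for all group means here). Fgl2 followed at 70.5 ± 15.1 FPKM and Eif4e3 at 22.4 ± 3.01 FPKM. Mrgpre at 3.30 ± 0.388 and Acot11 at 2.85 ± 0.475 FPKM were the lowest and did not differ beyond their spread. In untreated CD4 cells Cd7 (74.8 ± 28.9 FPKM) and Fgl2 (55.9 ± 1.70 FPKM) overlapped, followed by Eif4e3 (26.6 ± 1.31 FPKM), Mrgpre (3.17 ± 0.334 FPKM) and Acot11 (2.85 ± 0.191 FPKM). The 2 low genes still had enough pairs to be measured in each library, with 63 to 501 counted pairs for Mrgpre and 139 to 506 for Acot11.

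All 5 genes were lower in each CD8 RUX+CSA pool than in any CD8 pool of the other 3 treatments. The share of all genes that lie below the other 3 treatments at once was not computed, so this count has no background. The members were chosen on the comparison with untreated, where 22.7% of the 12684 tested genes had every RUX+CSA pool below every untreated pool and 15.7% passed the threshold in either direction, so nothing is read from that count. Against CSA alone and against RUX alone, which share the RUX+CSA pools, 11.5% and 11.5% of genes had every pool lower. Levels below are CPM of TMM-scaled totals (a scaling that trims extreme genes), log2 differences are fitted values with standard errors (SE), and these 5 genes are given no test in CD8 where the untreated or RUX+CSA pools enter.

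Cd7, the T and natural killer cell receptor, read 545, 707 and 671 CPM in untreated CD8 pools 1 to 3. It read 463, 413 and 687 CPM in CSA pools 4 to 6 and 287, 508 and 540.2 CPM in RUX pools 7 to 9. Under RUX+CSA, pools 10 to 12 read 165, 179.7 and 181 CPM. The RUX+CSA pools were close to each other and far below the rest, the lowest of which was RUX pool 7, and CSA pool 6 was at the level of the untreated pools. Group means ran from 641 ± 84.8 untreated through 521 ± 146 with CSA and 445 ± 138 with RUX to 175 ± 8.70 with both. The first 3 means overlap within their SD, although each RUX pool was below each untreated pool. The log2 difference from untreated was -1.87 (SE 0.24) with both drugs, -0.30 (SE 0.23) with CSA and -0.53 (SE 0.23) with RUX. Without CSA pool 6 and RUX pool 7 the single-drug differences were -0.56 and -0.29.

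Mrgpre, the orphan receptor gene, had its high and low pools placed much as Cd7 did. It read 10.9, 12.5 and 13.8 CPM untreated, 7.47, 6.25 and 15.9 CPM with CSA, and 7.01, 11.8 and 12.3 CPM with RUX. With RUX+CSA it read 3.94, 2.90 and 3.06 CPM. CSA pool 6 was again the highest pool of its group and RUX pool 7 the lowest of its own. The log2 difference from untreated was -1.91 (SE 0.34) with both drugs, -0.32 (SE 0.32) with CSA and -0.26 (SE 0.32) with RUX. Leaving out the 2 pools that stood apart moved the CSA difference to -0.86 and the RUX difference to -0.05.

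Acot11, the acyl-CoA thioesterase gene, read 14.3, 19.2 and 14.9 CPM untreated, 11.6, 9.47 and 13.7 CPM with CSA, and 14.5, 15.3 and 15.4 CPM with RUX. With both drugs it read 7.13, 7.28 and 6.29 CPM. The CSA pools lay wholly below the untreated and RUX pools, and the RUX+CSA pools wholly below the CSA pools. Its log2 difference from untreated was -0.47 (SE 0.16) with CSA, -0.10 (SE 0.16) with RUX and -1.22 (SE 0.16) with both. Without the 2 pools that stood apart, the CSA value was -0.62 and the RUX value -0.07.

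Fgl2 and Eif4e3 had another order, in which the mean with CSA alone was not below untreated. Fgl2, the fibrinogen-like gene, read 255, 328 and 215 CPM in untreated CD8 pools, 328, 377 and 208 CPM with CSA, and 211, 203 and 227 CPM with RUX. With RUX+CSA it read 129, 115 and 129 CPM. Group means were 304 ± 86.8 with CSA, 266 ± 57.1 untreated, 214 ± 12.1 with RUX and 125 ± 7.95 with both, of which the first 3 overlap within their spread. The log2 difference from untreated was 0.20 (SE 0.19) with CSA, -0.31 (SE 0.20) with RUX and -1.09 (SE 0.20) with both. Without the 2 pools that stood apart, the single-drug values were 0.40 and -0.31.

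Eif4e3, the cap-binding family gene, read 56.4, 63.7 and 48.6 CPM untreated, 55.4, 59.7 and 54.1 CPM with CSA, and 52.0, 50.03 and 52.7 CPM with RUX. With both drugs it read 34.5, 36.2 and 39.1 CPM, the smallest step of the 5 genes. Its log2 difference from untreated was 0.00 (SE 0.10) with CSA, -0.13 (SE 0.10) with RUX and -0.62 (SE 0.10) with both. The single-drug values were 0.02 and -0.13 without the 2 pools.

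**Figure D2:**
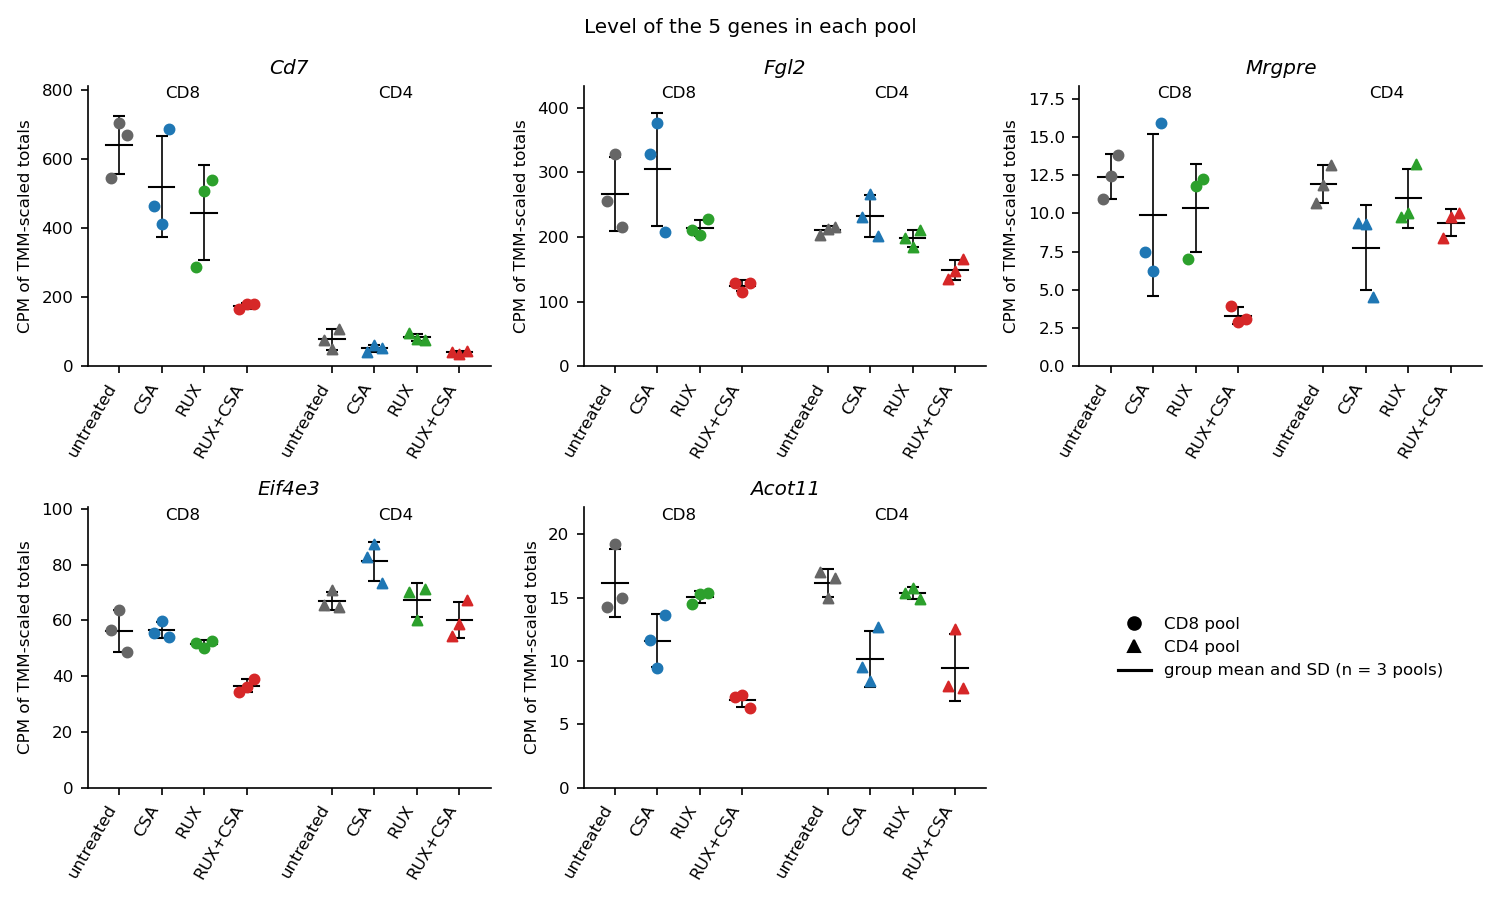
CPM of TMM-scaled totals of each gene in each pool, by cell type (circles CD8, triangles CD4) and treatment, with group mean and SD (n = 3 pools, black); every axis starts at 0. In CD8 cells the 3 RUX+CSA pools of each gene lie below the other 9 pools, a pattern whose share over all genes was not computed.

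The values against each drug alone in CD8 cells use the same RUX+CSA pools by which the genes were chosen, and add no separate support. RUX+CSA against CSA gave log2 differences of -1.57 for Cd7, -1.29 for Fgl2, -1.58 for Mrgpre, -0.62 for Eif4e3 and -0.75 for Acot11. Without CSA pool 6 and RUX pool 7 these were -1.31, -1.49, -1.04, -0.64 and -0.61 in the same order of genes. RUX+CSA against RUX gave -1.34 for Cd7, -0.78 for Fgl2, -1.65 for Mrgpre, -0.50 for Eif4e3 and -1.13 for Acot11, and without the 2 pools -1.58, -0.78, -1.85, -0.48 and -1.15. When the mean log2 CPM of the neutrophil, erythroid, macrophage and B cell markers was added to the model as a covariate, the RUX+CSA difference from untreated was -1.87 for Cd7 and -2.37 for Mrgpre. It was -0.93 for Acot11, -0.36 for Fgl2 and -0.19 for Eif4e3. With it the RUX difference from untreated turned positive for Fgl2 (0.13), Eif4e3 (0.14) and Acot11 (0.081), and the CSA difference moved to 0.62 for Fgl2 and 0.26 for Eif4e3. That covariate moves with the treatment itself, and the part of other cells' RNA in these differences was not tested.

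**Figure D3:**
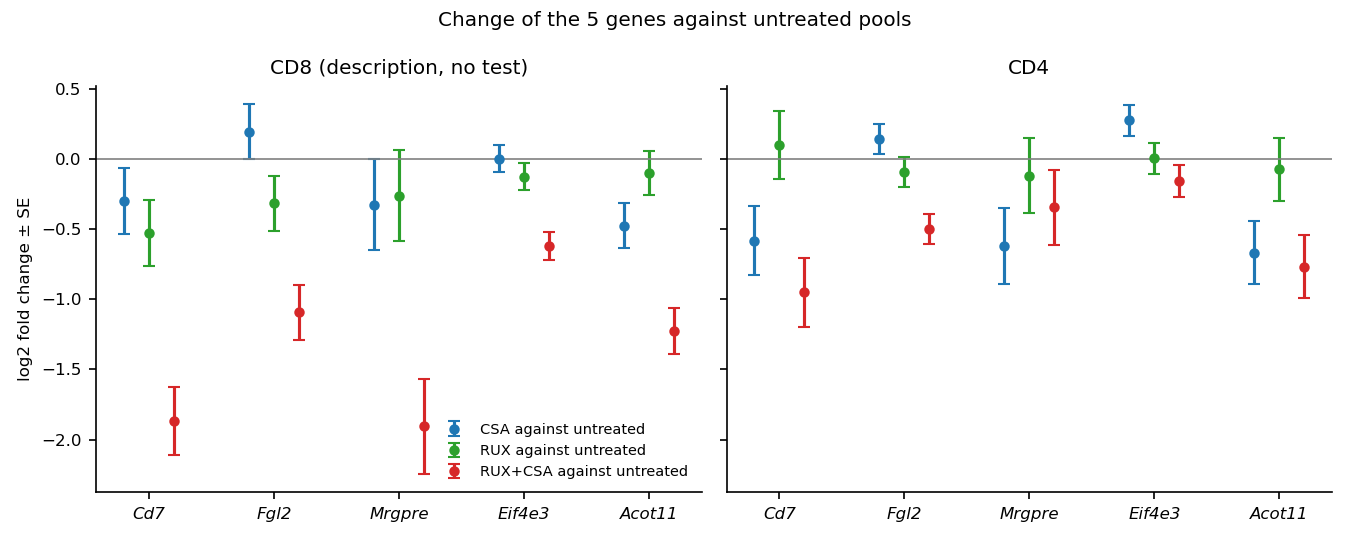
Fitted log2 fold change against untreated, with SE bars, for each gene under CSA, RUX and RUX+CSA in CD8 cells (left, a description with no test) and CD4 cells (right); the 3 comparisons of a cell type share their untreated pools. The RUX+CSA points of Cd7 and Mrgpre are lowest in CD8 cells (-1.87 and -1.91), and the CD4 points of these genes are nearer to 0 (-0.95 and -0.34). The genes were chosen for low CD8 RUX+CSA levels, which favours larger differences in CD8 cells.

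The single CD8 comparison of treatments that uses neither the untreated nor the RUX+CSA pools is RUX against CSA. No member passed the threshold, an adjusted p under 0.05 in edgeR's quasi-likelihood test with Benjamini-Hochberg adjustment. Of all 12684 genes 0% passed, with 230 at an unadjusted p under 0.05 and 0 called by DESeq2. The Eif4e3 pools were all lower and the Acot11 pools all higher with RUX than with CSA, 2 of 5 members without overlap where 6.07% of genes had none. The log2 differences were -0.51 (SE 0.20) for Fgl2, 0.37 (SE 0.16) for Acot11, -0.23 (SE 0.23) for Cd7, -0.13 (SE 0.10) for Eif4e3 and 0.06 (SE 0.32) for Mrgpre. With CSA pool 6 and RUX pool 7 left out, the log2 differences were -0.71 for Fgl2, 0.82 for Mrgpre, 0.54 for Acot11, -0.16 for Eif4e3 and 0.27 for Cd7, the last with the opposite sign. No p is given for these, since the pools were left out for how they differed from the others.

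The CD4 pools took no part in choosing the genes. In CD4 cells the 2 genes that passed the threshold for cyclosporine, given with or without ruxolitinib, were Cd7 and Acot11. Both were lower in the 6 pools with CSA than in the 6 pools without, and Fgl2 was lower with both drugs than with none or with CSA alone. Ruxolitinib alone left no member past the threshold.

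Cd7 read 75.9, 48.6 and 108.7 CPM in untreated CD4 pools 13 to 15 and 95.2, 79.8 and 75.2 CPM in RUX pools 19 to 21. It read 41.2, 61.7 and 52.9 CPM in CSA pools 16 to 18 and 42.1, 34.5 and 44.1 CPM in RUX+CSA pools 22 to 24. All RUX+CSA pools lay below all untreated and RUX pools, while untreated pool 14 lay within the CSA pools. With CSA against without, the log2 difference was -0.82 (SE 0.17, adjusted p = 0.0181 by edgeR). Without RUX+CSA pool 23 the adjusted p was 0.0512. With the other-cell covariate the difference was -1.13 (adjusted p = 0.00375 by edgeR), where 347 genes were called. The median log2 difference in this comparison was -1.29 for macrophage markers, and positive for neutrophil, erythroid (2.86) and B cell (2.23) markers. The covariate averages these lists, so it cannot adjust for any of them alone, and nothing is read from the covariate value.

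Acot11 read 17.0, 14.9 and 16.5 CPM untreated and 15.4, 15.8 and 14.9 CPM with RUX. It read 9.49, 8.41 and 12.6 CPM with CSA and 8.02, 12.5 and 7.88 CPM with both drugs. Every pool with CSA was below every pool without it. The log2 difference with CSA against without was -0.68 (SE 0.16, adjusted p = 0.0211 by edgeR). It missed the threshold without CSA pool 17 or RUX pool 20 (adjusted p up to 0.0519). With the other-cell covariate the difference was -0.74 and also missed it (adjusted p = 0.0919 by edgeR). As for Cd7, nothing is read from the covariate value. So 2 of the 5 members were called lower with CSA, where 3.39% of 13175 genes were called lower and 7.16% in either direction. Erythroid markers separated the same groups, with 181 to 325 CPM under CSA and 100.2 to 310.1 under RUX+CSA against 1.73 to 56.1 untreated and 28.3 to 53.5 under RUX. Of these 9 markers 5 were tested and 1 passed as higher with CSA, and their part in the Cd7 and Acot11 differences was not tested.

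Mrgpre read 10.7, 11.9 and 13.2 CPM in untreated CD4 pools, 9.39, 9.32 and 4.54 CPM with CSA, 9.75, 10.0 and 13.2 CPM with RUX, and 8.36, 9.75 and 10.0 CPM with both. Groups with CSA differed from those without by a log2 value of -0.42 (SE 0.19, adjusted p = 0.207 by edgeR). Under RUX+CSA the CD4 level of 9.38 ± 0.894 CPM was above the CD8 level of 3.30 ± 0.563 CPM, although the untreated levels of 11.92 ± 1.255 CPM in CD4 and 12.4 ± 1.46 CPM in CD8 cells overlapped. This is a description, since the choice of genes by these CD8 pools favours a larger fall in CD8 cells.

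Fgl2 read 203, 213 and 216 CPM in untreated CD4 pools, 231, 266 and 201 CPM with CSA, and 198, 185 and 210.0 CPM with RUX. With both drugs it read 135, 147 and 166 CPM. All 3 RUX+CSA pools lay below the other 9 CD4 pools, a pattern whose share over all genes was not computed. RUX+CSA against untreated gave a log2 difference of -0.50 (SE 0.11, adjusted p = 0.0384 by edgeR). That p was near the threshold, which it still passed without RUX+CSA pool 24 (0.0408) and missed when any of the other 5 libraries was left out (up to 0.129). Against CSA alone the log2 difference was -0.64 (SE 0.11, adjusted p = 0.0211, lost without CSA pool 16 or 17 or RUX+CSA pool 22 or 23, with an adjusted p of up to 0.136), and against RUX alone -0.40 (SE 0.11, adjusted p = 0.0971). These last 2 comparisons and the interaction below were added after the levels had been seen.

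Eif4e3 read 65.5, 70.7 and 64.6 CPM in untreated CD4 pools, 82.6, 87.4 and 73.4 CPM with CSA, 70.3, 60.2 and 71.2 CPM with RUX, and 54.4, 58.7 and 67.2 CPM with both drugs. The CSA pools were all above the untreated pools and all above the RUX+CSA pools. Neither difference passed the threshold by edgeR, with 0.28 (SE 0.11, adjusted p = 0.24) for CSA against untreated and -0.43 (SE 0.11, adjusted p = 0.164) for RUX+CSA against CSA. DESeq2 called the second (adjusted p = 0.0418), where it called 229 genes in either direction. RUX+CSA against untreated was -0.16 (SE 0.11, adjusted p = 0.524).

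Of the 5 members, 4 had every CD4 RUX+CSA pool below every untreated pool, all but Eif4e3, where 10.9% of 13175 genes did. Fgl2 alone was called lower, where 0.744% of genes were called lower and 1.77% in either direction. Cd7 (log2 -0.95, SE 0.25, adjusted p = 0.0724), Acot11 (-0.77, SE 0.22, adjusted p = 0.0919) and Mrgpre (-0.34, SE 0.27, adjusted p = 0.568) did not pass by edgeR. DESeq2 called Cd7 (adjusted p = 0.00284) and Acot11 (adjusted p = 0.0191). It called 947 genes in either direction there, against 233 by edgeR, so the edgeR shares are not the background of these calls. Without untreated pool 14, Cd7 was called by edgeR too (log2 -1.20, adjusted p = 0.00813). CSA against untreated called no member, where 1.48% of genes were called, and RUX against untreated called no member and 0% of all genes, with 548 genes at an unadjusted p under 0.05 and 18 called by DESeq2. By edgeR, RUX+CSA against CSA called Fgl2 lower, where 0.0987% of genes were called lower, and RUX+CSA against RUX called no member lower, where 0.205% were. Cd7 stood at -1.05 (SE 0.25, adjusted p = 0.0725) in the latter. DESeq2 called Cd7 (-1.04, adjusted p = 0.00105) and Fgl2 (-0.40, adjusted p = 0.0357) there, among 578 genes in either direction. EdgeR with the other-cell covariate called Cd7 (-1.37, adjusted p = 0.0095) among 150 genes. Macrophage markers (median log2 -1.04) and neutrophil markers (0.81) moved in opposite directions there too, so nothing is read from the covariate value. These comparisons share control pools, so their values are side by side and not independent.

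Whether ruxolitinib and cyclosporine acted on the log2 scale other than by adding up was tested in CD4 cells as an interaction. It was -0.55 (SE 0.15) for Fgl2 and -0.44 (SE 0.16) for Eif4e3, with adjusted p of 0.797 and 0.93 by edgeR. It called 0% of 13175 genes, with 629 at an unadjusted p under 0.05 and 22 called by DESeq2. Averaged over both CSA states, ruxolitinib changed Fgl2 by -0.37 (SE 0.08, adjusted p = 0.0784 by edgeR), where 0.25% of genes were called. DESeq2 called Fgl2 in that comparison (adjusted p = 0.00312), where it called 222 genes in either direction.

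Macrophage markers moved beside Fgl2, a gene that macrophages also express. Of the 10 markers, 5 were lower and none higher in CD4 RUX+CSA against untreated by edgeR, among them C1qb (log2 -3.29), C1qc (-3.42) and Adgre1 (-1.82). C1qa went from 34.9 ± 24.6 to 3.97 ± 2.38 CPM (adjusted p = 0.0594). The summed level of the list went from 368 to 1445 CPM untreated to 1017 to 1263 CPM with both drugs, led by Lyz2, which neutrophils share and which read 492 ± 592 and 1122 ± 132 CPM. In CD8 cells 4 of the 10 were lower and 1, Cd68, was higher. C1qa fell from 3.39 ± 1.51 to 0.770 ± 0.253 CPM there. With the other-cell covariate the CD4 Fgl2 difference was -0.49 with an adjusted p of 0.241 by edgeR. That covariate averages the macrophage list with 3 lists that moved the other way in this comparison. The median log2 difference was -3.02 for macrophage markers, 1.44 for neutrophil, 3.21 for erythroid and 5.03 for B cell markers. The covariate therefore cannot adjust for macrophage RNA by itself, and nothing about it is read from this value. The part of macrophage RNA in the Fgl2 change was not tested.

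CD8 and CD4 cells differed most in Cd7. Under CSA, Cd7 was 10.4-fold higher in CD8 than in CD4 cells (log2 3.38, SE 0.29), and under RUX 5.55-fold (log2 2.47, SE 0.27), with no overlap of pools in either case. Both passed the threshold by edgeR and under each of 10 alternatives, DESeq2 among them. Without CSA pool 6 and RUX pool 7 they were 3.12 and 2.71. Eif4e3 was lower in CD8 cells under CSA (log2 -0.48, SE 0.10, adjusted p = 0.0019) and under RUX (-0.33, SE 0.10, adjusted p = 0.0282). The RUX call was kept without RUX pool 20 of CD4 and lost without any of the other 5 libraries (adjusted p up to 0.107) and without CSA pool 6 and RUX pool 7 together (adjusted p = 0.0687). The CSA difference without those 2 was -0.45, given as a size only since the pools were left out for their expression. Fgl2 was higher in CD8 cells under CSA (0.43, SE 0.16, adjusted p = 0.0485), a call lost without pool 4, 5, 16 or 18 (adjusted p up to 0.328). It was also lost with median-of-ratios size factors (adjusted p = 0.0631) and without the low-count filter (adjusted p = 0.0616). Without CSA pool 6 and RUX pool 7 the Fgl2 difference was 0.64. CSA pool 6 was the lowest CD8 CSA pool for Fgl2 (208 CPM), so leaving it out raises this difference and no call is read from it. Under RUX, Fgl2 did not pass (0.17, SE 0.16, adjusted p = 0.512). Mrgpre and Acot11 did not pass under either drug. As background, under CSA 13.6% of 13476 genes passed with the CD8 level higher and 12.8% with it lower, and under RUX 8.56% and 9.32%.

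Without treatment, as a description, the CD8 to CD4 log2 difference was 3.09 (SE 0.28) for Cd7, 0.38 for Fgl2, 0.11 for Mrgpre, -0.20 for Eif4e3 and 0.05 for Acot11. Under RUX+CSA it was 2.18 (SE 0.27) for Cd7, -0.20 for Fgl2, -1.44 (SE 0.32) for Mrgpre, -0.66 for Eif4e3 and -0.40 for Acot11. The change from the first to the second was -1.55 (SE 0.44) for Mrgpre, -0.91 (SE 0.37) for Cd7, -0.58 (SE 0.23) for Fgl2 and -0.45 for both Eif4e3 (SE 0.14) and Acot11 (SE 0.27). Under RUX+CSA, Cd7 still stood 4.54-fold higher in CD8 cells. The difference between cell types in the effect of RUX against CSA, which uses none of the choosing pools, passed the threshold for no member, with the smallest adjusted p at 0.528 for Cd7 by edgeR, nor for any of 13476 genes, 1208 of which were at an unadjusted p under 0.05. DESeq2 was not run on it.

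Some of the genes varied together from library to library, also outside the RUX+CSA pools, which form a separate low cluster in CD8 cells. Over the 9 CD8 libraries of the other treatments, log2 CPM of Cd7 and Mrgpre correlated with a Pearson r of 0.851 and a Spearman rho of 0.883, and Fgl2 and Eif4e3 with 0.817 and 0.75. In these 9 libraries Fgl2 and Mrgpre went the other way (r -0.554, rho -0.467) and Cd7 and Fgl2 showed almost no relation (r -0.055). Acot11 stood at r 0.653 with Mrgpre and 0.444 with Cd7. Without CSA pool 6 and RUX pool 7, r over the remaining 7 was 0.856 for Cd7 and Mrgpre, 0.847 for Fgl2 and Eif4e3, -0.767 for Fgl2 and Mrgpre and -0.36 for Cd7 and Fgl2. Over the same 7 it was 0.899 for Mrgpre and Acot11 and 0.876 for Cd7 and Acot11. In the 12 CD4 libraries Fgl2 and Eif4e3 correlated with r 0.873 and rho 0.748, and with r 0.886 after each group's mean had been removed. Cd7 and Mrgpre did not keep their relation there (r 0.35, and -0.049 with group means removed), while Cd7 and Acot11 stood at r 0.659 and rho 0.755, and at -0.107 with group means removed. Fgl2 and Mrgpre were not opposed in CD4 libraries, with r 0.138, and 0.799 with group means removed. The libraries of a correlation share treatments and scaling, and the values are descriptions.

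**Figure D4:**
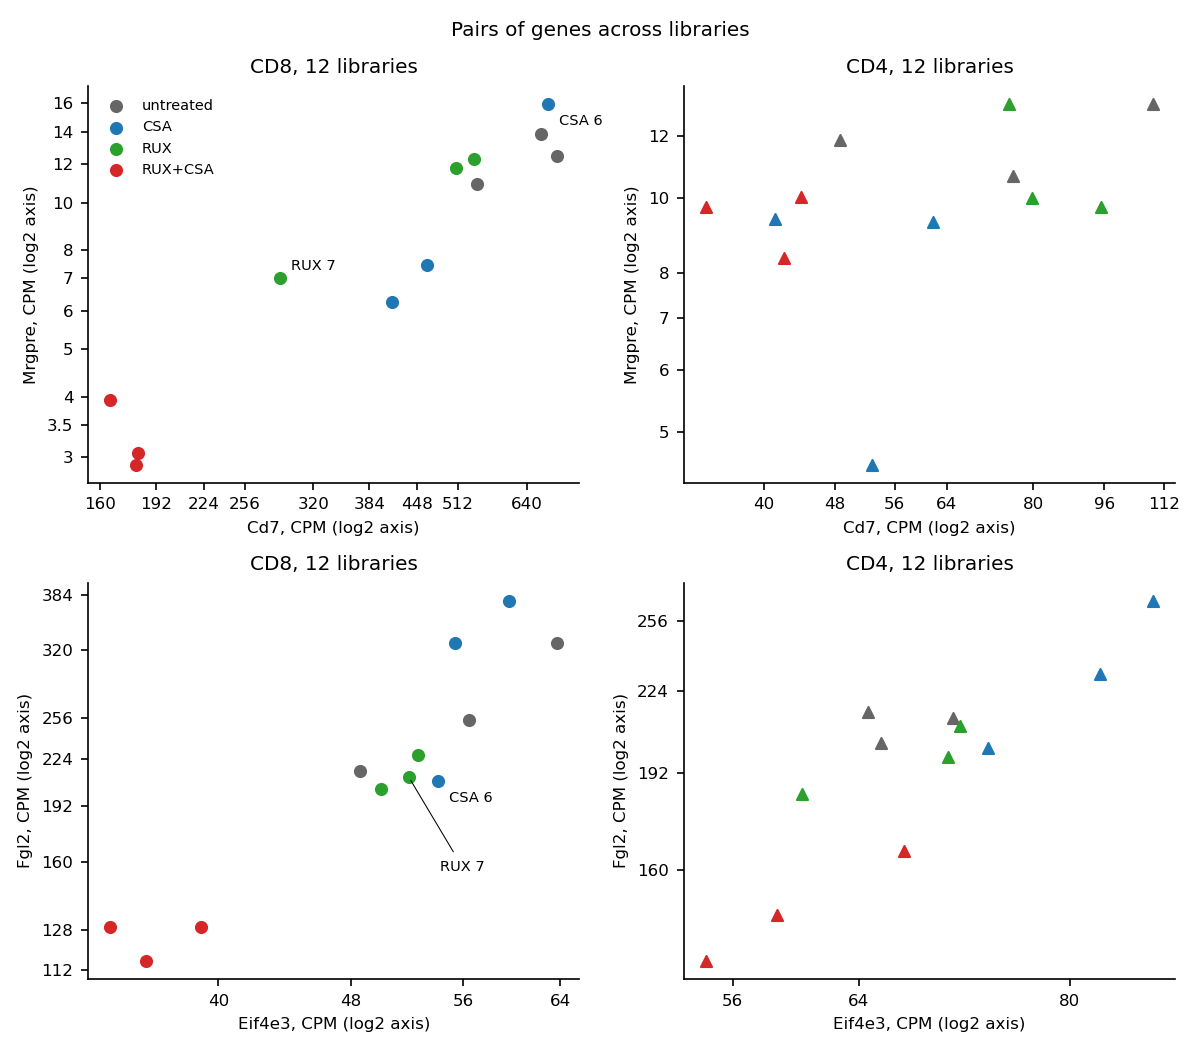
CPM on log2 axes of Mrgpre against Cd7 (top) and of Fgl2 against Eif4e3 (bottom) in the 12 CD8 (left) and 12 CD4 libraries (right), coloured by treatment. The Fgl2 and Eif4e3 points rise together in both cell types (r 0.817 over the 9 CD8 libraries without RUX+CSA, 0.873 over 12 CD4 libraries), and those of Cd7 and Mrgpre do so in CD8 libraries (0.851 over 9).

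The tested genes most like each member over all 12 CD8 libraries were listed by Pearson r, a value to which the 3 low RUX+CSA pools contribute. For Fgl2 they were Eif4e3 (0.938), the interferon-induced Mx1 (0.935) and BC147527 (0.93), with r over the 12 CD4 libraries of 0.873, 0.717 and 0.3. For Cd7 they were D630039A03Rik (0.961), the potassium channel gene Kcna3 (0.96) and Trerf1 (0.959), with CD4 values of -0.262, 0.521 and 0.767. For Mrgpre they were Cd7 (0.956), 2810029C07Rik (0.955) and Zfp523 (0.947), with 0.35, 0.19 and 0.516 in CD4. Eif4e3 was followed by Tlr12 (0.969), Ryr1 (0.949) and Ccdc136 (0.947), and Acot11 by Sfxn4 (0.971), Flywch1 (0.969) and Mapre3 (0.957). In CD4 libraries r was 0.462, 0.506 and 0.198 for the first 3 and 0.208, 0.741 and 0.405 for the others.

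Relatives and partners of the members were followed as lists. In CD8 RUX+CSA against untreated, where 15.7% of all genes passed by edgeR, 4 of 18 tested CD7 ligands and T cell surface genes were higher and 1 lower, with a list median log2 difference of 0.25 against -0.02 over all genes. The 1988 genes behind that share became 426 without RUX+CSA pool 10, 538 without untreated pool 2, 656 without RUX+CSA pool 11, 1205 without untreated pool 3, 1303 without untreated pool 1 and 0 with the other-cell covariate, so the list counts in CD8 cells rest on all of these pools. Lgals1, which encodes the CD7 ligand galectin-1, was higher by 0.84 (SE 0.16, adjusted p = 0.0099). Its level was 703 ± 112 CPM untreated and 1259 ± 228 CPM with both drugs, the opposite direction to Cd7, its receptor gene. Cd244, a receptor of natural killer and cytotoxic T cells, was lower (log2 -1.91, SE 0.30, adjusted p = 0.00597). The SECTM1 genes were close to absent, with 4 counted pairs of Sectm1b in all libraries together and at most 0.952 CPM on average in a group for Sectm1a.

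Among 12 tested fibrinogen-related genes and FGL receptors, 1 was higher and 2 lower in CD8 RUX+CSA (median -0.70). Tnc, which encodes the matrix protein tenascin-C, and Angptl7 (log2 -2.20) were lower, and the Fc receptor gene Fcgr3 was higher (adjusted p = 0.0267). Fgl1, the relative that binds LAG3, had no more than 1 pair in any library. Lag3 (-0.59, adjusted p = 0.35) and Fcgr2b, the FGL2 receptor (1.35, adjusted p = 0.0912), did not pass by edgeR. Of the Mas-related receptor genes, 2 of 19 besides Mrgpre passed the filter on low counts. Mrgpra2b, which neutrophils express, was higher with both drugs (log2 4.08), the opposite of Mrgpre. As given above, neutrophil markers also summed higher there, with 1 of the 9 past the threshold.

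The cap-binding list had 1 higher and 1 lower of 20 tested genes (median 0.07). Eif4ebp1, an inhibitor of eIF4E, was higher by 0.87 (SE 0.17) and Eif4enif1, a transporter of eIF4E, was at -0.86 (SE 0.21). The other cap-binding family genes Eif4e (0.23, adjusted p = 0.169) and Eif4e2 (0.23, adjusted p = 0.0736) did not pass. Among 15 thioesterase and acyl-CoA synthetase genes, 3 were higher and none lower (median 0.27), with Acsl1 at 1.21 (SE 0.23), Them6 at 0.43 and Acsl3 at 1.69.

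In CD4 cells with CSA against without, where 7.16% of genes passed by edgeR, the CD7 list had 6 of 19 higher and 1 lower (median 0.19). The 943 genes behind that share became 456 to 625 without CSA pool 18, RUX pool 19 or 20, or RUX+CSA pool 22, 23 or 24, 347 with the other-cell covariate and 1728 with DESeq2. Slamf7, a surface receptor of activated lymphocytes, was higher by 1.29 (SE 0.13), Lgals1 by 0.56 (SE 0.09, adjusted p = 0.00275) and Cd28 by 0.32 (SE 0.07), where Cd7 was lower. The acyl-CoA list had 2 of 17 higher, Acss2 (0.68, SE 0.11) and the thioesterase gene Acot9 (0.35, SE 0.06), and none lower, while Acot11 was lower. The fibrinogen-related list had 1 lower of 14, Angptl2 (-0.81), and the cap-binding list 1 lower of 20, Ncbp2 (-0.39). Neither of the 2 tested Mas-related relatives passed.

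The neighbours of the members were looked at for the same contrasts. Csnk1d next to Cd7 stood at -0.11 (SE 0.07, adjusted p = 0.261 by edgeR) in CD8 RUX+CSA against untreated, and Nadsyn1 next to Mrgpre at -0.25 (adjusted p = 0.287). Ccdc146, whose span holds Fgl2, stood at -1.19 (SE 0.50, adjusted p = 0.118), from a level of 0.962 ± 0.0978 CPM untreated. Fam185a, on the other side of Fgl2, was lower in CD8 RUX+CSA (-0.43, SE 0.13, adjusted p = 0.0391) and in CD4 cells with CSA (-0.56, SE 0.15, adjusted p = 0.0387). Foxp1 beside Eif4e3 was higher in CD4 cells with CSA (0.66, SE 0.10, adjusted p = 0.00205) and stood at 0.02 (SE 0.15) in CD8 cells, and Gpr27, on its other side, was higher in CD8 RUX+CSA (4.55, SE 0.87) from a level of 0.0265 ± 0.0459 CPM. Gsap, the other neighbour of Fgl2, and Ssbp3 beside Acot11 did not pass in either cell type. Mroh7, on the other side of Acot11, had 8 counted pairs in all libraries together.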

How the data were processed

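The deposited values are whole-number read pair counts per gene from SMART-Seq mRNA libraries. Per the file headers, the authors made them with featureCounts 2.0.3 in one call on exons of the UCSC mm10 gene annotation, counting pairs, with no strand option. Alignment was with STAR to mm10, per the submitters' processing notes, in a version not given in the sources used here. Counts were analysed as deposited with R 4.3.3, edgeR 4.0.16 and limma 3.58.1 (filterByExpr, TMM, glmQLFit and glmQLFTest with Benjamini-Hochberg adjustment, threshold 0.05). A prior count of 2 was used for log2 CPM values (correlations and the other-cell covariate), and not set for the fitted log2 differences. Separate fits took all CD8 (12684 genes), all CD4 (13175) or all 24 libraries (13476, for CD8 against CD4), and each kept all 5 members. SE was taken from the F statistic. Figures used Python 3.11.15, pandas 2.3.3, numpy 2.4.6 and matplotlib 3.10.9.

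The members and gene lists were chosen with earlier results of these data known. Named from each list were up to 3 genes past the threshold, with the smallest p, and the nearest relatives and partners of the members. The 3 genes most like each member and its neighbours were also named. Alternatives were median-of-ratios size factors, no filter beyond 1 count, DESeq2 1.42.0, an other-cell marker covariate, leaving out each library in turn, and leaving out CSA pool 6 with RUX pool 7. Comparisons of CD4 RUX+CSA with each single drug and the CD4 interaction were added after the data had been seen.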

Additional observations from a re-analysis of the deposited data

How the results depend on the processing

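No paired analysis was possible because the labels do not say which CD8 and CD4 pools, if any, came from the same mice. The CD8 against CD4 tests therefore ignore any such pairing. The 40 group levels moved by less than their SD when scaled to all counted pairs. Of 650 tested member values under an alternative, 616 had the direction given above, and the 34 that turned belong to differences of at most 0.40 in size (log2). The causes of the changes below were not tested. With median-of-ratios factors and DESeq2, Eif4e3 in CD4 RUX against untreated was -0.0010 and -0.0014. Without the low-count filter, genes called were 69 for CD4 groups with RUX, 77 for CD4 RUX+CSA against CSA, 206 against RUX and 1 for the interaction. DESeq2 called 947 (CD4 RUX+CSA), 693 (CSA) and 18 (RUX) against untreated, 1728 with CSA, 222 with RUX, 229 and 578 for RUX+CSA against CSA and RUX, and 22 for the interaction. With the other-cell covariate, 33 were called for CD4 RUX+CSA against untreated, 347 with CSA, 12 with RUX and 0 for CD8 RUX+CSA against untreated, and Cd7 in CD4 RUX was -0.063. Without CSA pool 6 and RUX pool 7, 457 were called for CD8 RUX against CSA (Cd7 0.27) and 3893 for CD8 RUX+CSA against untreated, and Mrgpre in CD8 against CD4 was -0.14 under CSA and 0.19 under RUX.

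Leaving out each library in turn, genes called ranged from 58 to 293 for CD4 RUX+CSA against untreated (233 with all libraries), 48 to 204 for CSA (195), 0 to 15 for RUX (0), 456 to 1209 with CSA (943), 0 to 88 with RUX (33), 1 to 31 for RUX+CSA against CSA (37), 35 to 90 against RUX (103) and 0 to 6 for the interaction (0). They ranged from 426 to 1807 for CD8 RUX+CSA against untreated (1988), and from 2341 to 2985 and 1491 to 2167 for CD8 against CD4 under CSA (3545) and RUX (2409). Signs turned in CD4 for Eif4e3 (-0.037 to 0.078) and Cd7 (-0.15 to 0.42) with RUX against untreated, for Cd7 (-0.26 to 0.025), Mrgpre (-0.058 to 0.16) and Acot11 (-0.21 to 0.0049) with RUX against without, and for Acot11 in RUX+CSA against CSA (-0.35 to 0.084) and the interaction (-0.28 to 0.16). They also turned for Mrgpre (-0.18 to 0.59) and Cd7 (-0.39 to 0.023) in CD8 RUX against CSA, and in CD8 against CD4 for Mrgpre under CSA (-0.14 to 0.63) and RUX (-0.19 to 0.19) and Acot11 under RUX (-0.0050 to 0.059).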
